A study of Mus musculus with 35 samples.

Results

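Replication-dependent histone genes were taken as the mm10 protein-coding genes whose symbols begin with Hist1h, Hist2h, Hist3h or Hist4h, or with the newer names H1f, H2ac, H2bc, H3c or H4c followed by a number. The rule took 71 of 21883 protein-coding genes, and it used names only, no measured value. Of these, 67 carry a Hist name, 4 of them only as an older name (H4f16, H2bu2, H2aw and H4bc24). The other 4 (H1f0, H1f7, H1f8 and H1f10) are linker histone genes that the names bring in although they are not replication-dependent. The set held 10 H1, 18 H2A, 18 H2B, 12 H3 and 13 H4 genes.

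ChIP-seq peaks of H3K4me1, H3K4me3 and H3K27ac were available from bone marrow of C57BL/6 mice in 5 groups, each with 2 libraries per mark that the series design calls biological replicates. Lineage-negative cells, enriched with a lineage depletion kit and called HSPC here, are a mixture of stem and progenitor cells. They came from WT mice, from Npm1c mice (a mutant allele of the nucleophosmin gene), from Flt3-ITD mice (an internal tandem duplication in the Flt3 receptor gene) and from DM mice, read here as carrying both alleles, which the labels do not spell out. The fifth group was WT neutrophils, obtained with a neutrophil isolation kit. Ages, the driver of any Cre or transgene and pooling of animals are not stated in the sources at hand.

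Most histone protein is made during DNA replication from these genes. They are short, mostly intronless and packed in clusters, and their transcripts end in a stem-loop instead of a poly(A) tail. Their transcription and 3′ end processing take place in the histone locus body, which is organised by NPAT, a target of cyclin E and CDK2. H2A, H2B, H3 and H4 form the nucleosome core, H1 binds the linker DNA, and variant histones made throughout the cell cycle come from other genes. HSPC include dividing progenitors, whereas mature neutrophils have left the cell cycle. H3K4me3 marks active or poised promoters, H3K27ac marks active promoters and enhancers, and H3K4me1 marks enhancers and the flanks of promoters.

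Each value below is the number of base pairs covered by peaks (covered bp) in a window of the gene plus 1 kb before and after it, per library. The deposited lists hold peak positions only, with no score and no reads, so depth is unknown and peak height cannot be read. H3K4me1 and H3K4me3 peaks had a width of 1000 bp, other than 1 H3K4me1 peak in 1 library and at most 3 H3K4me3 peaks in any library, so these values move in steps of about 1 peak or with a peak's position, while H3K27ac peaks varied in width. In bulk chromatin, fewer cells with a mark and less of the mark per cell cannot be told apart. Lists held 102927 to 131205 peaks of H3K4me1, 30310 to 39320 of H3K4me3 and 21709 to 30150 of H3K27ac. The H3K27ac lists covered 13.5 to 23.9 Mb, with the DM libraries at 20.3 and 13.5 Mb. Windows of neighbouring histone genes overlap: 52 of the 71 windows overlapped another, forming 40 separate blocks, so neighbouring members can share a peak and are not independent measurements.

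A group of 4 clusters holds most members, with spans joined when less than 100 kb apart. The chromosome 3 cluster (chr3:96219885-96270192, 50.3 kb) has 10 members. On chromosome 13 the first cluster (chr13:21715711-21837530, 122 kb) has 18, the second (chr13:22035122-22043658, 8.54 kb) has 5 and the third (chr13:23531044-23764412, 233 kb) has 29. A testis pair, H2bc1 and H2ac1, lies next to the third cluster (chr13:23933725-23934913), and H2bu2 and H2aw form a pair on chromosome 11 (chr11:58948911-58955192). The remaining 5 members (H4f16, H1f10, H1f8, H1f0 and H1f7) stand alone. The median span was 496 bp, and 8 spans exceeded 2 kb, the longest being 37455 bp for H2bc6, so its covered bp is not comparable with that of the short genes.

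RefSeq promoters of GRCm38.p6, which is mm10, were matched for 66 of the 71 members, each from 250 bases before to 50 after the start. The 7 printed here are those whose marks the results below turn on: H1f1, H2ac15 and H3c2 were among the members with the largest H3K27ac differences in neutrophils, H1f4 and H2ac18 kept theirs, H4c9 has no CCAAT box, and H2bc23 stands for the repeated end of the first chromosome 13 cluster that no peak reached. Capitals mark the TATA box, the CCAAT box on either strand and a heptamer known from H1 promoters, whose letters are given after the sequences. The coordinates are H1f1 chr13:23763418-23763717 (plus strand), H1f4 chr13:23622509-23622808 (minus), H2ac15 chr13:21753863-21754162 (minus), H2ac18 chr3:96245247-96245546 (plus), H3c2 chr13:23752095-23752394 (plus), H4c9 chr13:22041313-22041612 (minus) and H2bc23 chr13:21810150-21810449 (minus).
H1f1: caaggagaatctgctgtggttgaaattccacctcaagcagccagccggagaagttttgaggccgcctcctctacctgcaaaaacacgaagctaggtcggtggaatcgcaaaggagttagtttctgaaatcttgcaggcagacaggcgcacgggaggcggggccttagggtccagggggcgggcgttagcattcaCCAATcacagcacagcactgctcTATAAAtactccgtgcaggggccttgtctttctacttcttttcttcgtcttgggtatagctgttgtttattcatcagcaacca
H1f4: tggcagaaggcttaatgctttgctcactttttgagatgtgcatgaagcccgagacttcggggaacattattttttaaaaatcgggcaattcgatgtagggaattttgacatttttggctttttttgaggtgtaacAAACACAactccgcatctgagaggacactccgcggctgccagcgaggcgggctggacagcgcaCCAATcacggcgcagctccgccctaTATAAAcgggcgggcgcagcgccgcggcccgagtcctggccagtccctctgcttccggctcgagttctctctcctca
H2ac15: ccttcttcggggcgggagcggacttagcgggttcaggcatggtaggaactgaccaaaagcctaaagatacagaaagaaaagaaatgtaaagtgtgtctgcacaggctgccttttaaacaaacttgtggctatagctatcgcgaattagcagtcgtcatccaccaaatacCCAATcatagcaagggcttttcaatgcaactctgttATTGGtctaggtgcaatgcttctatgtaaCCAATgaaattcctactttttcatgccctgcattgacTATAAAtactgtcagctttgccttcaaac
H2ac18: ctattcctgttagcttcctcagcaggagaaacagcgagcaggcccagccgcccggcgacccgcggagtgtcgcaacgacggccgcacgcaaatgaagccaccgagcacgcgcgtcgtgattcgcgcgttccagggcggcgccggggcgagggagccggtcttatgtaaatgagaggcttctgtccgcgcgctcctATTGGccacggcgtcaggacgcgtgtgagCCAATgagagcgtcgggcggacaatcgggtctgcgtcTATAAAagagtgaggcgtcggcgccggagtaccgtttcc
H3c2: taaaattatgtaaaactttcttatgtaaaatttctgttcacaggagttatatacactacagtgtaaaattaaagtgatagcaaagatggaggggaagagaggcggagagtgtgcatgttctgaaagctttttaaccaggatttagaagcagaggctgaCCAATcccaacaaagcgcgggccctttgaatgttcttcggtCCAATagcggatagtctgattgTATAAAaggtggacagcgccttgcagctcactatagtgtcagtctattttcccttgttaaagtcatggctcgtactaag
H4c9: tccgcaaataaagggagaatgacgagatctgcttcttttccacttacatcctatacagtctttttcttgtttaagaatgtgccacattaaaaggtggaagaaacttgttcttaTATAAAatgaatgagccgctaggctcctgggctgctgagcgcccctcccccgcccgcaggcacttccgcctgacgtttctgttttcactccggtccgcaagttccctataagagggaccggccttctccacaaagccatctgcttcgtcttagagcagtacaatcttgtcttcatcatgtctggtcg
H2bc23: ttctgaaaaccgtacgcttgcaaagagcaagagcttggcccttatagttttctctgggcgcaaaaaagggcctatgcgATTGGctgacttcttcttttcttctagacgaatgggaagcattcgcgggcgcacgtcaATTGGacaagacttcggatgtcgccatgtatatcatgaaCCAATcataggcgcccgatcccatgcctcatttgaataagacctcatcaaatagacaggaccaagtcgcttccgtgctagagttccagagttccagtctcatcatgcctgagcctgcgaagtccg

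All of these windows except those of H4c9 and H2bc23 hold a CCAAT box followed by a TATA box, with positions given for the first letter and counted from the start of the gene. H1f4 carries the H1 heptamer at -115, a CCAAT box at -52 and a TATA box at -27, and H1f1 has CCAAT at -56 and TATA at -33 without the heptamer. H3c2 has CCAAT at -92 and -51 and TATA at -29. In H2ac15 and H2ac18 the TATA box lies after the annotated start, at 22 and 12, with CCAAT boxes at -81, -45 and -16 and at -55 and -26. H4c9 holds TATAAA at -137 and no CCAAT, and H2bc23 holds CCAAT at -172, -114 and -75 and no TATAAA.

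Searched on both strands, the TATA box (TATAAA) was present in 35 of 66 member promoters (53.0%) against 13.3% of 17491 RefSeq promoters of the same length. CCAAT was present in 54 of 66 (81.8%) against 39.0%, and it was found in all 18 H2A, all 16 H2B and all 10 H3 promoters but in only 3 of 12 H4 and 7 of 10 H1 promoters. The octamer ATTTGCAT, bound by OCT1 in H2B promoters, was present in 13 of 66 (19.7%) against 1.71%, in 7 H2A and 6 H2B promoters and in none of the other classes. Such genes can share a promoter: 10 pairs of an H2A and an H2B gene stood head to head with starts 164 to 281 bp apart, so 1 octamer can be counted in both. The heptamer AAACACA was present in 9 of 66 (13.6%) against 6.13%, of which 5 were H1, 2 H2A and 2 H2B promoters. These matches describe letters in a window and say nothing of occupancy.

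In WT HSPC, 60 of 71 members had an H3K4me3 peak in both libraries, 58 had H3K27ac in both and 56 had H3K4me1 in both. Among all protein-coding genes, H3K4me3 was present in both WT libraries at 68.1%, H3K27ac at 48.0% and H3K4me1 at 72.4%. All 3 marks were present in both libraries at 51 members in WT, 51 in Npm1c, 46 in Flt3-ITD, 46 in DM and 43 in neutrophils. The median covered bp of members with any coverage in WT HSPC was 1490 for H3K27ac, 1000 for H3K4me3 and 915 for H3K4me1. H3K27ac was widest in H2bc6, with its long span, at 5505 and 4923 bp in the WT libraries. Among short genes, the linker histone genes led, whose spans are longer (794 bp for H1f5): H1f5 had 2587 and 2440 bp, H1f2 2408 and 2479 bp, H1f3 2347 and 2471 bp, and H1f4 2396 and 2383 bp.

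**Figure D1:**
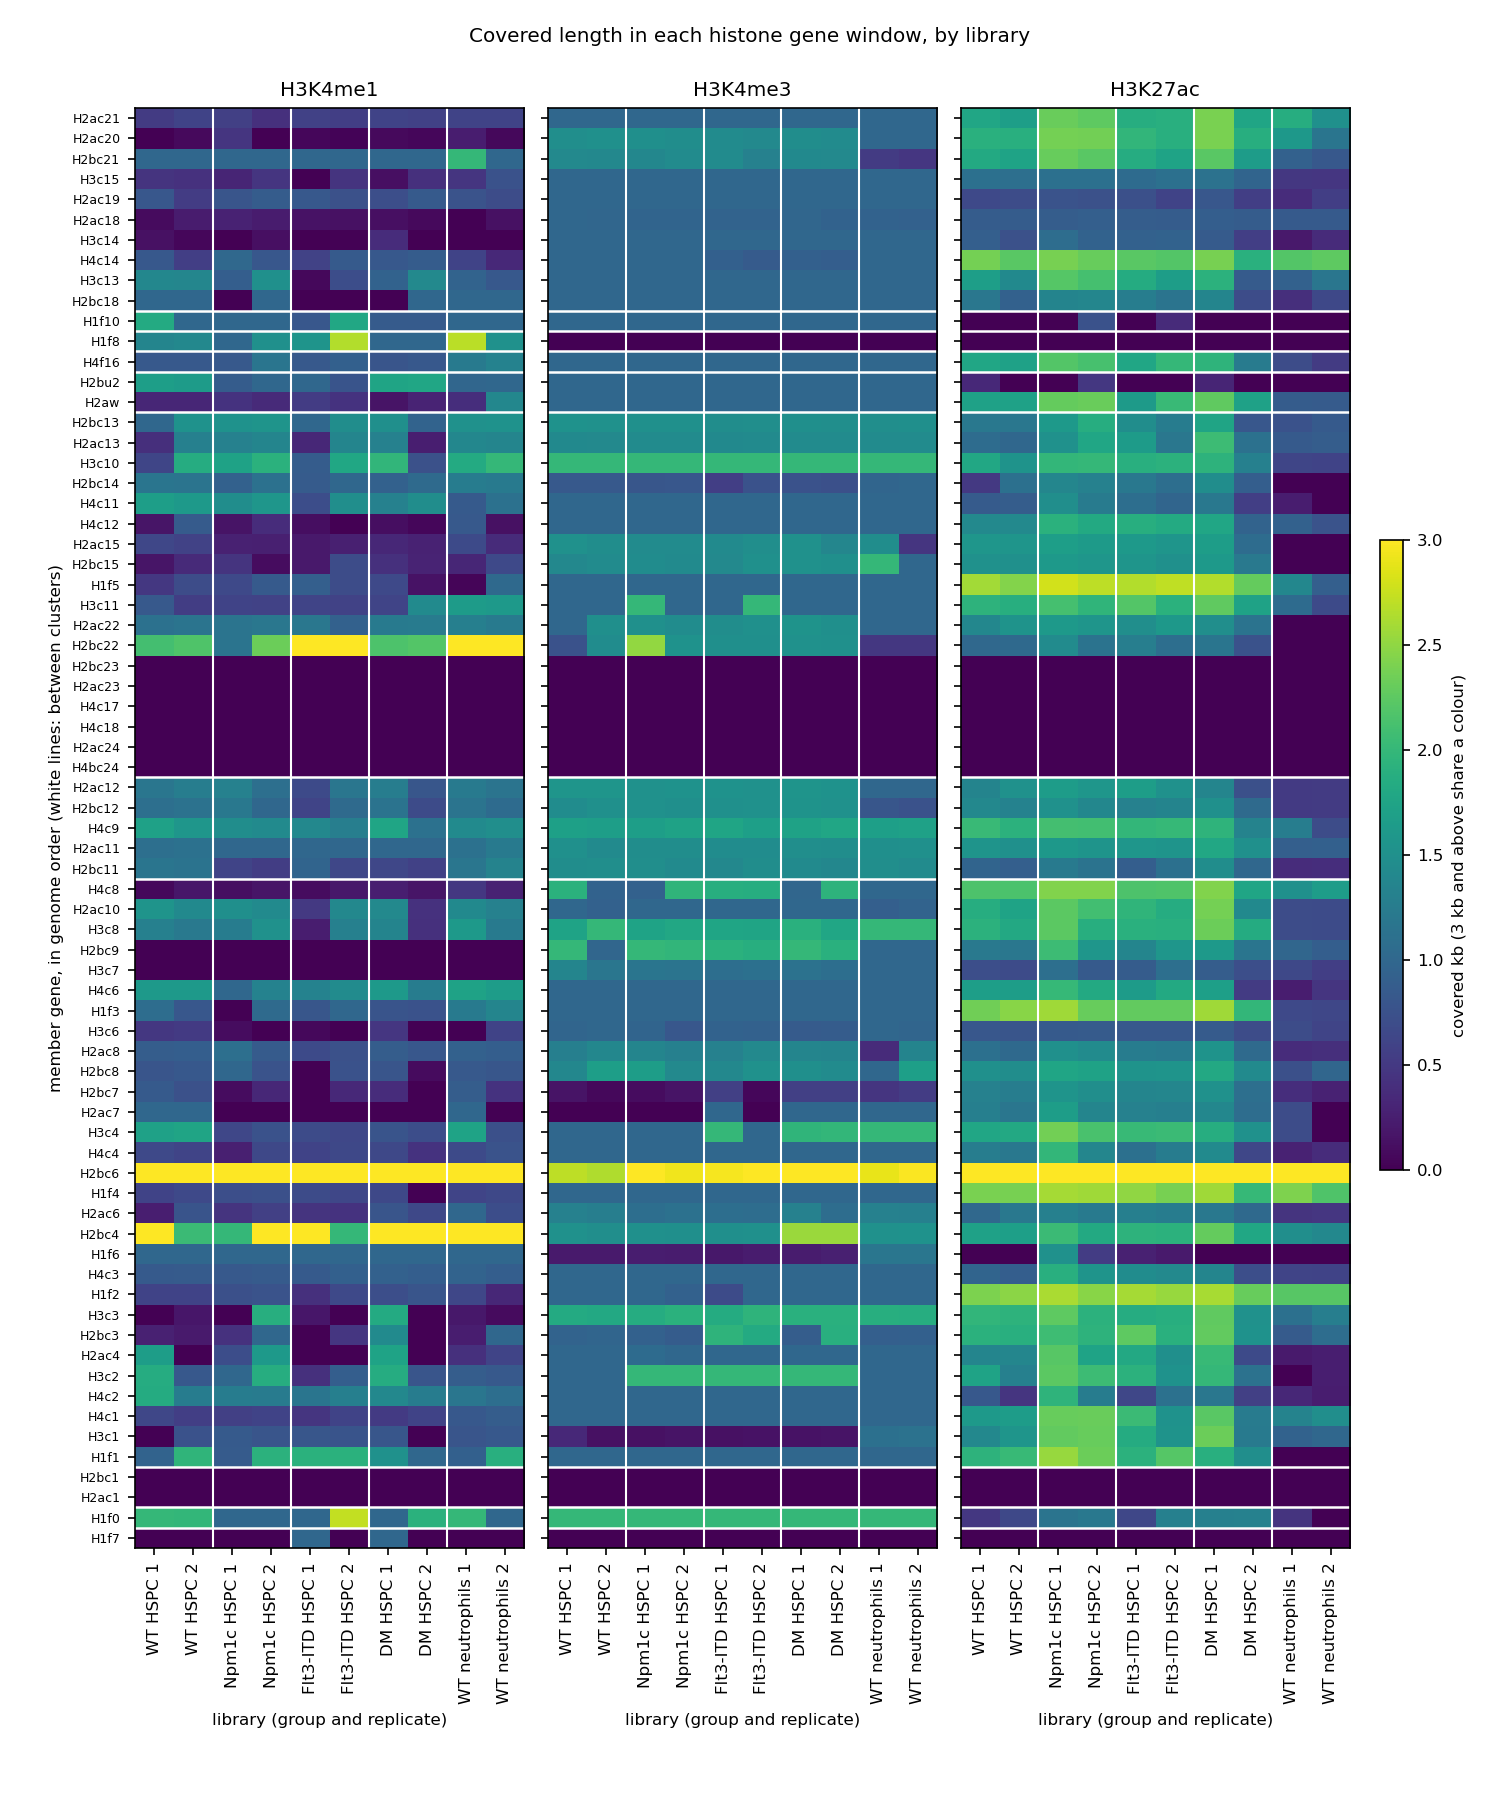
Covered kb of peak in the window of each member (rows, in genomic order) in each of the 10 libraries (columns) for the 3 marks, with colours capped at 3 kb. Darker colours mean fewer covered kb. The band of H3K27ac darkens at most members in the 2 neutrophil columns, and H3K4me3 stays close to 1 or 2 peaks in every group. A set of 8 members, 6 of them neighbours, is empty throughout.

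Around the start sites, acetylation lay inside and beyond the short genes and dipped at the start. Over 59 members (those with a Hist name and a RefSeq promoter, leaving out the testis genes), H3K27ac peaks of WT HSPC covered 56.8% of members at 500 bp before the start, 15.3% at the start, 78.8% at 500 bp after it and 59.3% at 1000 bp after it (means of 2 libraries), with the highest value, 82.2%, at 600 bp. Across 17491 genes the highest value was 41.5% at 200 bp after the start, and coverage was 29.6% at the start and 10.8% at 1000 bp. In neutrophils the members' profile was lower on both sides of the start but close to that of WT at the start itself. It was 30.5% at 500 bp before, 13.6% at the start, 45.8% at 500 bp after and 19.5% at 1000 bp after. H3K4me3 covered 18.6% of members at the start in WT and 29.7% in neutrophils, and 56.8% and 55.9% at 500 bp after it. H3K4me1 of WT lay outside this, at 55.1% of members 1000 bp before, 4.24% at the start and 47.5% at 1000 bp after. In the 300-bp promoter windows themselves, H3K27ac was present in both libraries at 26 of 66 members in WT, 36 in Npm1c, 32 in Flt3-ITD, 26 in DM and 15 in neutrophils. Among all promoters the shares were 39.1%, 42.5%, 40.2%, 37.4% and 35.1% in the same order, so the members' 39.4% in WT was at the background. These are descriptions, since members of a cluster share peaks.

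**Figure D2:**
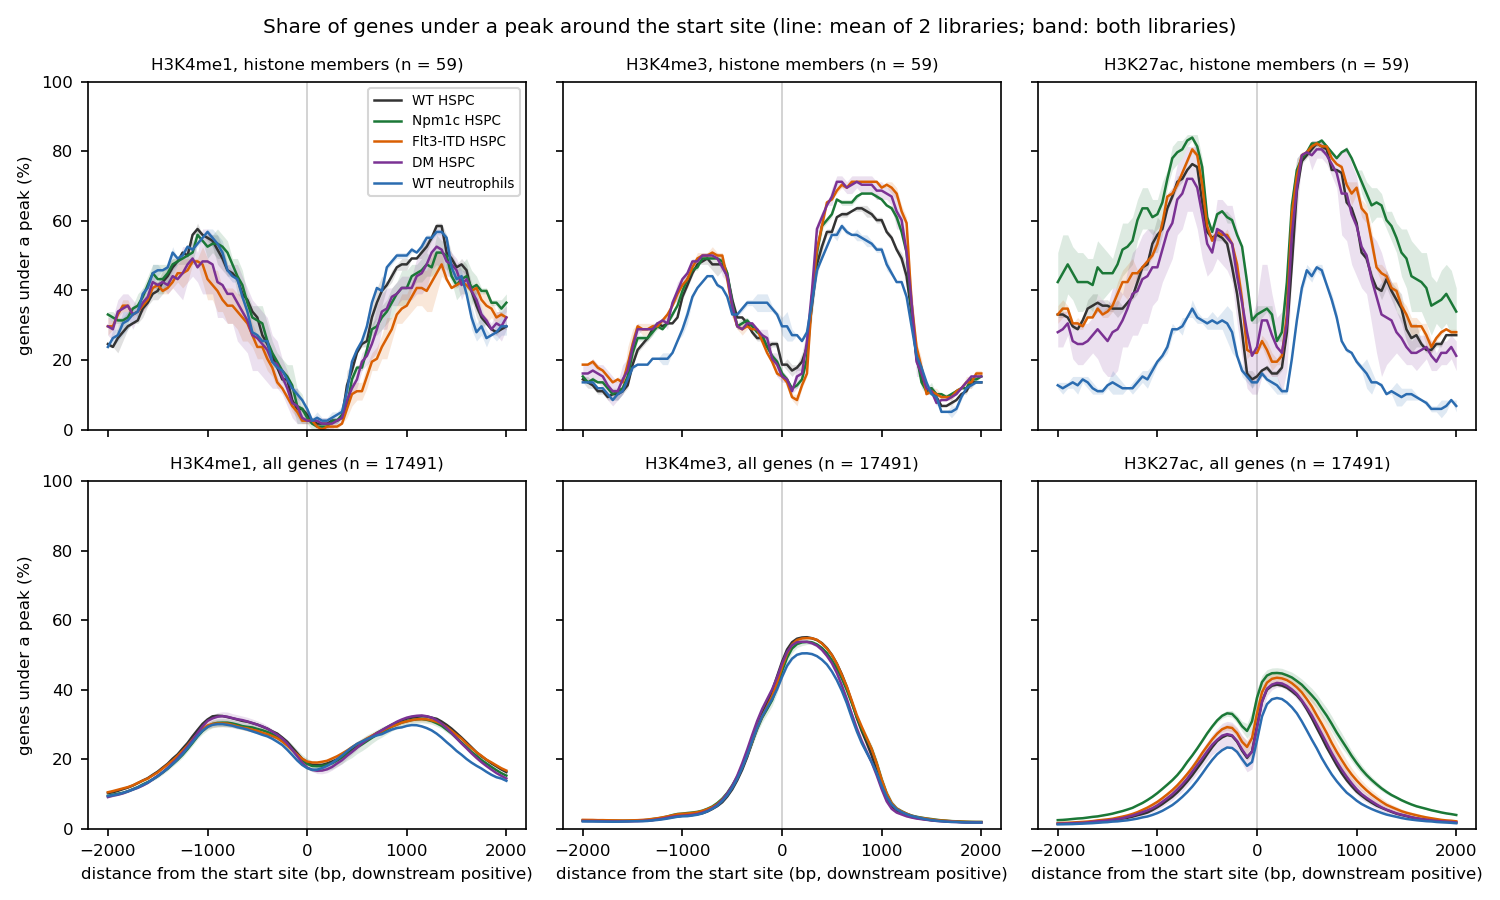
Percent of the 59 members (and of 17491 genes) under a peak at each position from 2000 bp before to 2000 bp after the start, for each mark and group, as means of 2 libraries. The H3K27ac lines of the members dip at the start; the highest value lies at 600 bp after it in WT HSPC (82.2%), Flt3-ITD, DM and neutrophils (46.6%), and at 650 bp before it in Npm1c (83.9%).

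The comparison of WT neutrophils with WT HSPC asked how the marks at these genes differ between a mixture of stem and progenitor cells and a mature cell. The share of dividing cells was not measured in either group. H3K27ac was narrower in neutrophils at most histone genes. Of 71 members, 61 passed the filter (a peak in at least 2 of the 10 libraries), and limma called 35 lower and 0 higher at a Benjamini-Hochberg adjusted p under 0.05. Of all 12305 genes tested, 34.5% were called, 23% lower and 11.6% higher, against 57.4% of the tested members lower. The median log2 difference was -0.70 over members and -0.11 over all genes tested. At an unadjusted p under 0.05 there were 40 members, and 44.9% of all genes tested. Of the 61 members, 59 had a difference below 0 and none above it, and at 55 both neutrophil libraries lay below both WT libraries, as did 51.3% of all genes tested. Since windows overlap, the calls fell in 23 of the 35 blocks that held a tested member, and in 16 blocks every tested member was lower.

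Leaving out either WT library left 23 calls, and leaving out the first or the second neutrophil library left 27 or 28. Of the 35 genes, 22 were lower in all 4 of these fits. Restricting the window to the gene span without the 1 kb on each side left 10 calls. The shares of all genes called under these refits are not given here, so these counts describe the members only. Centring each library on its median shifted the comparison of all genes by -0.16 and the members' median to -0.54, with 53 below 0 and 8 above, and all 35 calls held.

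**Figure D3:**
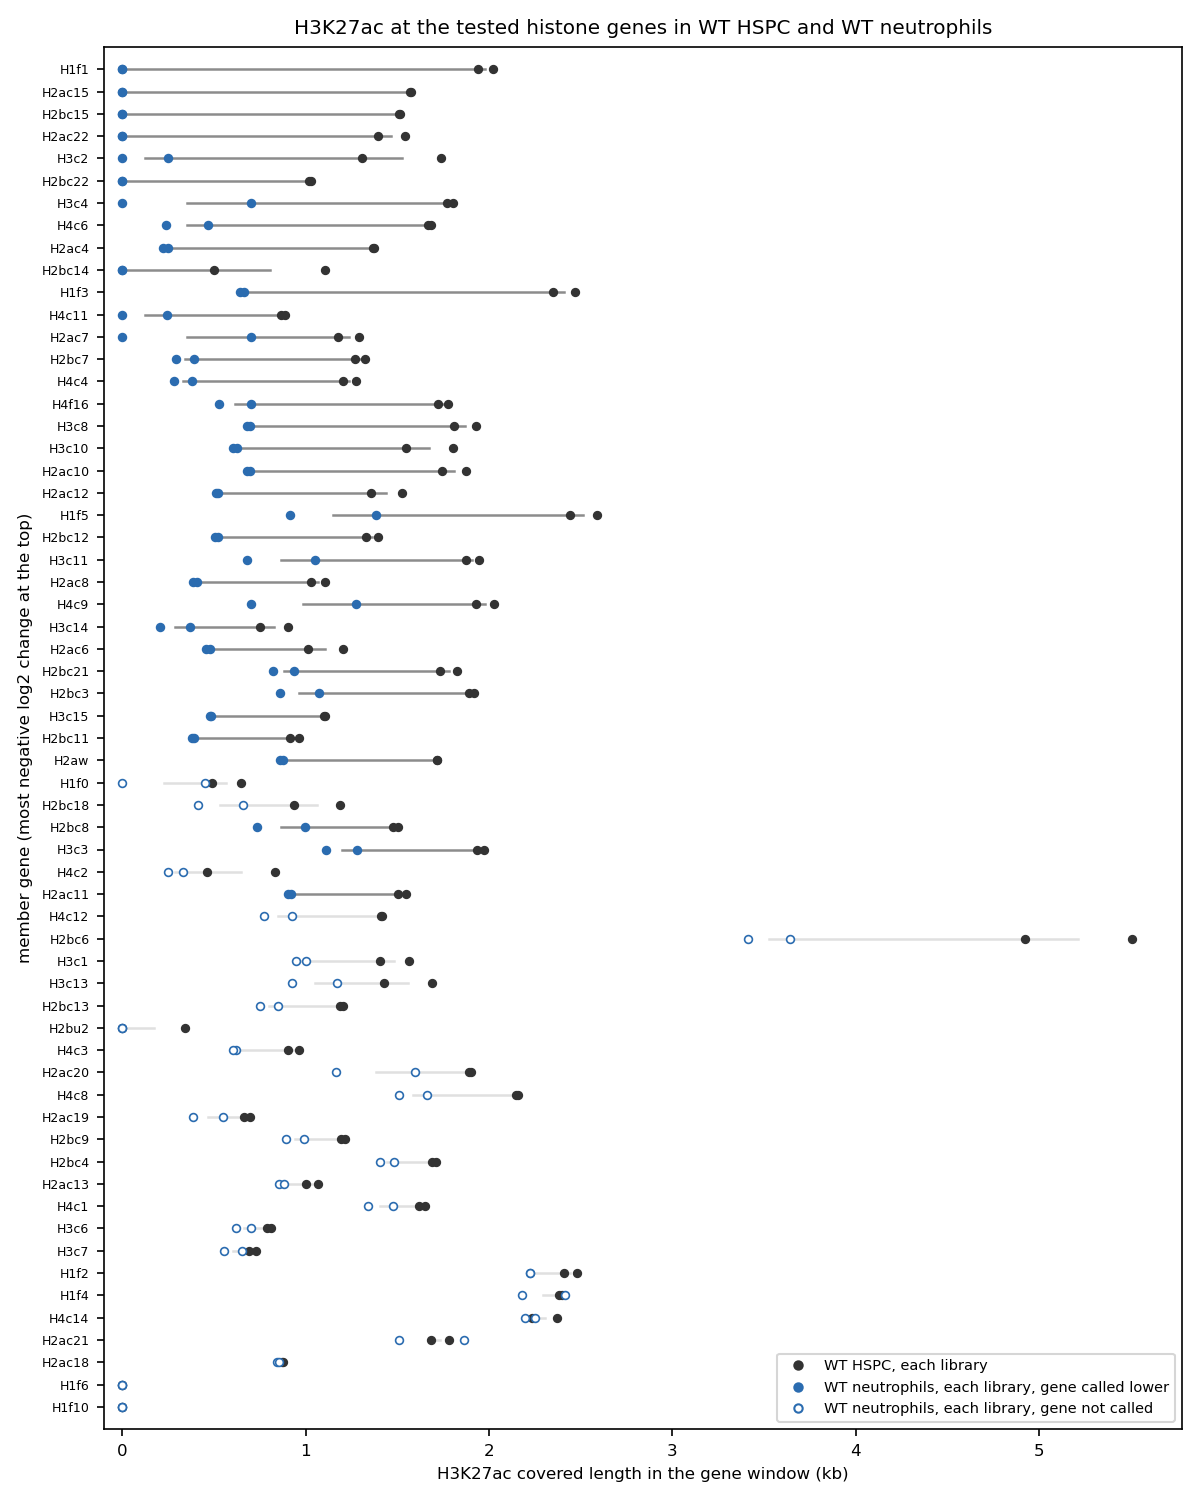
H3K27ac covered kb (x axis) of each tested member (y axis, ordered by log2 difference) in both WT HSPC libraries (dark points) and both WT neutrophil libraries (blue, filled for the 35 members called lower), with lines joining the group means. H1f1, H2ac15, H2bc15 and H2ac22 at the top have both neutrophil points at 0, and WT and neutrophil points come close together at H1f2, H1f4, H4c14, H2ac21 and H2ac18 near the bottom.

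Linker histone genes split. H1f1, which encodes H1.1 and sits at the end of the third chromosome 13 cluster, had 1937 and 2020 bp of H3K27ac in WT HSPC and 0 in both neutrophil libraries (log2 difference -2.31, SE 0.11, limma adjusted p = 3.62e-05). Neutrophils had no H3K27ac peak there, while H3K4me3 covered 1000 bp of the H1f1 window in all 10 libraries. Where a group is at 0, the log2 difference is set by the pseudocount of 500 bp and is no fold. H1f3 fell from 2347 and 2471 bp to 663 and 642 bp (-1.34, SE 0.11, adjusted p = 0.000219), and H1f5 from 2587 and 2440 bp to 1386 and 913 bp (-0.88, SE 0.14, adjusted p = 0.00295). The groups did not overlap at either gene. H1f2 and H1f4, which encode the linker histones H1.2 and H1.4, had neutrophil values near those of WT, at 2226 and 2226 bp for H1f2 and 2416 and 2178 bp for H1f4. In all, 3 of 8 tested H1 members were lower, with a median of -0.37.

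Among H2A and H2B genes, several head-to-head partners, whose windows overlap, were lower together. H2ac15 had 1573 and 1567 bp in WT and 0 in both neutrophil libraries (-2.05, SE 0.15, adjusted p = 0.000138). Its partner H2bc15 had 1515 and 1509 bp and 0 in both (-2.01, SE 0.11, adjusted p = 5.8e-05). Both genes lost every H3K27ac peak in their windows. H2ac22 had 1394 and 1541 bp against 0 and 0 (-1.98, SE 0.11, adjusted p = 6.28e-05), and H2bc22 had 1017 and 1027 bp against 0 and 0 (-1.61, SE 0.16, adjusted p = 0.000509). H2bc14, with 501 and 1107 bp in WT, was also at 0 in both neutrophil libraries (-1.34, SE 0.24, adjusted p = 0.00534). All 5 lie in the first chromosome 13 cluster. H2ac4, in the third cluster, fell from 1368 and 1374 bp to 219 and 248 bp (-1.35, SE 0.31, adjusted p = 0.0147), a call lost without any 1 of the 4 libraries (adjusted p 0.0636 to 0.0723).

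Of the 10 head-to-head H2A and H2B pairs with a RefSeq promoter for each member, 7 had both members tested. At 6 of them both were lower in neutrophils (H2ac15 with H2bc15, H2ac22 with H2bc22, H2ac12 with H2bc12, H2ac11 with H2bc11, H2ac8 with H2bc8 and H2ac7 with H2bc7). At the seventh neither passed: H2bc13 had a log2 difference of -0.38 and H2ac13 of -0.16. With starts 164 to 281 bp apart, the windows of partners overlap, so the calls of a pair are not independent and joint calls show no coupling. Neighbouring H2A and H2B genes without a promoter entry for H2bc21 and H2bc4 are not in this count, and there 1 gene was lower and its neighbour was not: H2bc21 (-0.73, lower) beside H2ac20 (-0.36), and H2ac6 (-0.73, lower, chosen after its value was seen) beside H2bc4 (-0.18). By class, 10 of 15 tested H2A members were lower with a median of -0.73, and 9 of 15 H2B members with a median of -0.70.

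Among H3 genes 8 of 12 were lower, with a median of -0.73. H3c2 had 1736 and 1309 bp in WT and 0 and 248 bp in neutrophils (-1.72, SE 0.26, adjusted p = 0.00261). At H3c4 the neutrophil libraries disagreed: WT had 1772 and 1805 bp, the first neutrophil library 702 bp and the second 0 (-1.56, SE 0.35, adjusted p = 0.0123), and the call was lost without either WT library (adjusted p 0.0627 and 0.0645). Among H4 genes 5 of 11 were lower, with a median of -0.52. H4c6 fell from 1685 and 1666 bp to 238 and 465 bp (-1.37, SE 0.32, adjusted p = 0.0151), a call lost without either WT library or the first neutrophil library (adjusted p 0.0721 to 0.0868). H4c9, in the second cluster, had 2028 and 1929 bp in WT and 1272 and 699 bp in neutrophils (-0.77, SE 0.19, adjusted p = 0.0207). These groups did not overlap, but the call was lost without either WT library or the second neutrophil library (adjusted p 0.0845 to 0.101).

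A few members had close to the WT coverage in neutrophils. The shares of all genes under the following limits were not counted, so these counts describe the members only. One at 0 in neutrophils, H2bu2, had 342 and 0 bp in WT. Of 59 tested members with H3K27ac in WT, 7 were at 0 in neutrophils, 33 were under 50% of the WT mean and 5 at or above 90% of it, with none above 100%. Those 5, named after their values were seen, were H1f2 (91.1%), H1f4 (96.1%), H4c14 (96.5%), H2ac18 (97.3%) and H2ac21 (97.5%). H4c14, an H4 gene of the chromosome 3 cluster, had 2372 and 2237 bp in WT and 2196 and 2250 bp in neutrophils. H2ac18, also on chromosome 3, had 868 and 877 bp against 845 and 853 bp. H2ac21 had 1780 and 1682 bp against 1866 and 1509 bp, groups that overlap. None of the 5 was called, and 3 of them lie on chromosome 3.

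By cluster, 3 of 10 tested members were lower on chromosome 3 (median log2 difference -0.38), 9 of 12 in the first chromosome 13 cluster (-1.07), 5 of 5 in the second (-0.77) and 16 of 29 in the third (-0.55). Whether clusters differ from each other was not tested. Summed over the union of windows, the first cluster had 13.7 and 13.9 kb of H3K27ac in WT and 4.58 and 3.41 kb in neutrophils, or 13.8 ± 0.192 against 3.99 ± 0.827 kb (mean ± SD, n = 2). The third had 37.9 ± 0.947 against 18.6 ± 0.0573 kb, the second 4.65 ± 0.0438 against 1.72 ± 0.392 kb, and the chromosome 3 cluster 10.3 ± 0.479 against 7.24 ± 0.472 kb (n = 2 each). In every cluster both neutrophil sums lay below both WT sums. The whole lists, which also hold peaks outside gene windows, covered 15.2 and 15.3 Mb in WT and 16.0 and 16.6 Mb in neutrophils. Neutrophil lists held more peaks (25554 and 26437 against 22065 and 21709) of smaller median width (487 and 482 against 530 and 542 bp). The part of this in the members' values was not tested. Over the windows of all genes tested, the median log2 difference was -0.11.

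**Figure D4:**
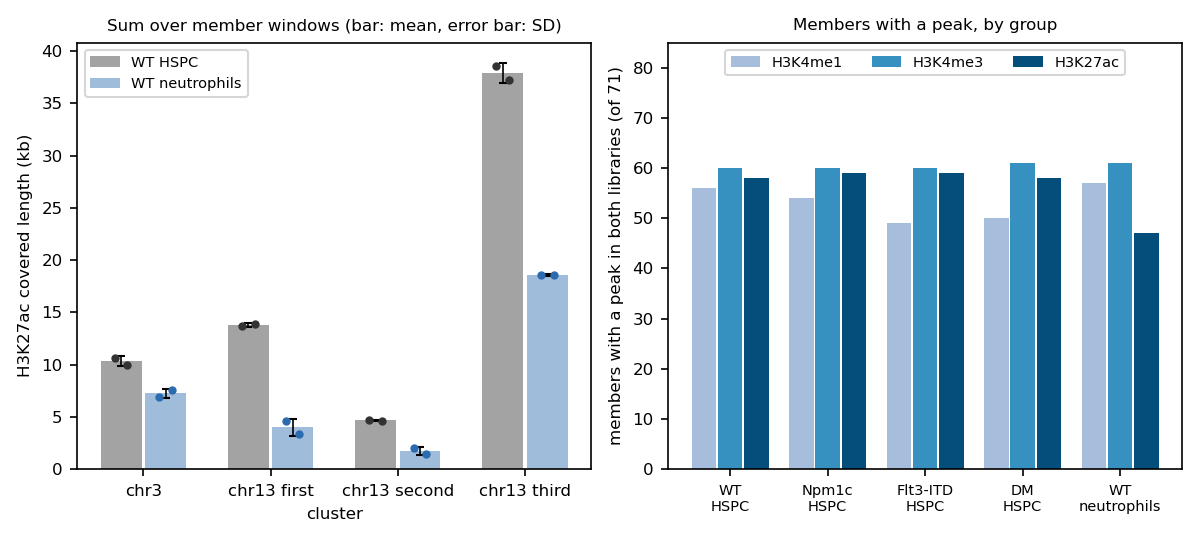
Left, H3K27ac kb summed over the union of windows of each cluster in WT HSPC and WT neutrophils (bars, mean; error bars, SD; points, both libraries); right, number of the 71 members with a peak in both libraries of each group for each mark. Neutrophil sums lie below WT sums in every cluster, and H3K27ac presence is 47 in neutrophils against 58 in WT while H3K4me3 presence is 61 against 60.

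Markers of cell type moved in the same comparison, and their part in the histone result was not tested. H3K27ac summed over 10 HSPC markers was 10.8 and 11.2 kb in WT HSPC and 4.44 and 4.96 kb in neutrophils, where Kit, Cd34, Gata2, Meis1, Flt3 and Sox4 were among those at 0, and 6 of 9 tested were lower. Over 12 neutrophil markers it was 1.22 and 1.29 kb in HSPC, with 9 at 0 (among them S100a8, S100a9, Ltf and Camp), and 18.8 and 20.3 kb in neutrophils, with 8 of 11 tested higher; Ly6g and Il1b were at 0 in neutrophils. Over 9 erythroid markers it was 17.2 and 15.2 kb in WT HSPC, so the lineage-negative fraction included chromatin with erythroid marks, and 0.628 and 0.573 kb in neutrophils, with 7 of 8 tested lower.

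H3K4me3 over the windows of the histone genes was called different in neutrophils at few members. It was present in both libraries at 61 of 71 members, against 60 in WT. limma called 3 members higher and 6 lower of 61 tested (14.8%), against 15.1% of 15641 genes (6.23% higher and 8.9% lower), and the median difference was 0 for both. In the 300-bp promoter windows, H3K4me3 was present in both libraries at 28 of 66 members in neutrophils against 19 in WT, while it was present at 47.2% and 51.5% of all promoters; this difference was not tested. At 9 members neutrophils had H3K4me1 and H3K4me3 in both libraries and no H3K27ac in either. In WT there were 2, H1f10 and H1f6, which are also among the 9. The share of all genes in this state was not counted. Members with H3K4me3 in all 4 libraries and H3K27ac in both WT libraries that had no H3K27ac in neutrophils numbered 6 of 57 (10.5%): H2bc14, H2ac15, H2bc15, H2ac22, H2bc22 and H1f1. Among all genes with the same marks in WT and the same H3K4me3, 8.05% did so, so the share of members is near the background.

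The H3K4me3 calls were gains, losses or shifts of single 1000-bp peaks. At H2ac20 and H2bc21, a pair on chromosome 3, WT had peaks on both sides of the starts and neutrophils had 1: H2bc21 covered 1410 and 1397 bp in WT and 518 and 478 bp in neutrophils (-0.93), and H2ac20 1479 and 1507 bp against 1000 and 1000 bp (-0.41). The pair H2ac12 and H2bc12 in the second cluster showed the same, from 1560 and 1563 bp to 1000 and 1000 bp at H2ac12 (-0.46) and from 1456 and 1508 bp to 802 and 760 bp at H2bc12 (-0.63). H1f6, which encodes the testis linker histone H1t, rose from 217 and 222 bp to 1172 and 1174 bp (1.22, limma adjusted p = 6.08e-07), and neutrophils had a peak over the gene itself (chr13:23695647-23696646) that no HSPC library had. H3c1 rose from 344 and 134 bp to 1104 and 1126 bp (1.14, adjusted p = 0.00225). H3c7 (-0.24, a call lost without either neutrophil library, adjusted p 0.135 and 0.14), H2bc13 (-0.02) and H2ac13 (0.02) were called for small shifts of peaks with almost no spread between replicates. The directions of H2ac20, H2ac12, H2bc13 and H2ac13 reversed when only the gene span was counted, and those of H3c1 and H2ac13 when 5 kb were added on each side.

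H3K4me1 differed in neutrophils at 2 of 61 tested members, 1 higher and 1 lower, against 19.8% of 16661 genes called (4.34% higher and 15.4% lower). H4f16, an H4 gene that stands alone, had 836 and 841 bp in WT and 1233 and 1330 bp in neutrophils (0.41, limma adjusted p = 0.0406), and the call was lost without any 1 of the 4 libraries (adjusted p 0.11 to 0.168) and turned to -0.42 with 5 kb on each side. Its H3K27ac went the other way, from 1775 and 1719 bp to 700 and 527 bp (-1.02, adjusted p = 0.00321), a difference outside the gene span, within which it was 0.0015. H2bu2, an H2B gene on chromosome 11, had 1678 and 1650 bp of H3K4me1 in WT and 987 and 1000 bp in neutrophils (-0.53, adjusted p = 0.00668; 0.304 with each library centred on its median).

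The mutant HSPC, compared with the same 2 WT libraries as the neutrophils, showed few H3K27ac differences at these genes. Covered bp cannot exceed the window, so at short genes already covered almost throughout a gain cannot register. At H4c8 the whole window, 2435 bp, was covered in both Npm1c libraries, against 2157 and 2147 bp in WT. In Npm1c HSPC, limma called 1 of 61 tested members higher and none lower, against 15.2% of all genes called. All 61 differences were above 0, with a median of 0.21 against 0.31 over all genes, and at 53 both Npm1c libraries lay above both WT libraries, as did 75.6% of genes. That direction followed the whole lists: centring the libraries shifted the comparison by 0.33 and left 17 members above 0 and 44 below. In Flt3-ITD HSPC no member was called by limma (0 at an unadjusted p under 0.05, as were 15.1% of genes), against 0.0488% of genes, with a median of 0.08 against 0.10 that centring shifted by 0.12. In DM HSPC no member was called (1 at an unadjusted p under 0.05, as were 26.6% of genes), against 12.1% of genes, with a median of -0.01 against 0.01.

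**Figure D5:**
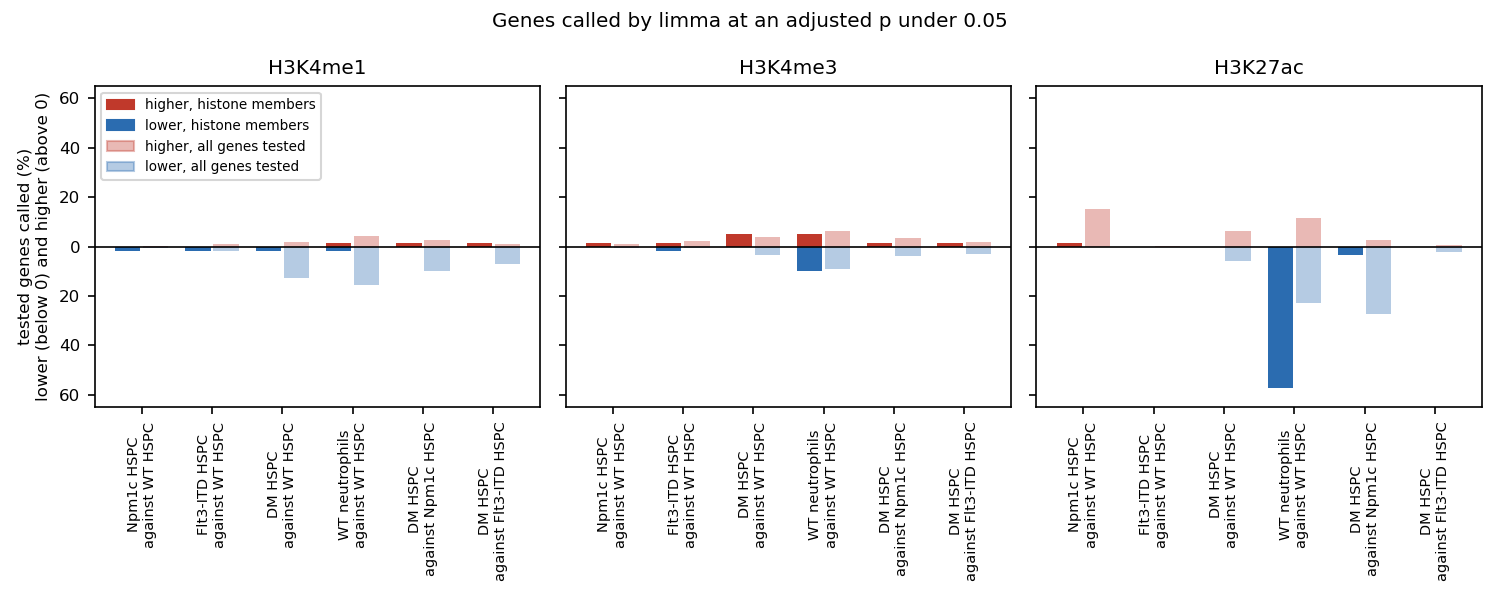
Percent of tested members and percent of all genes tested that limma called higher (above 0) and lower (below 0), for each of the 18 pairs of mark and comparison. The members' share lies above that of all genes by more than 5 percentage points only for H3K27ac called lower in WT neutrophils, at 57.4% against 23%.

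The call in Npm1c was H1f6, the testis H1t gene. It had 0 bp of H3K27ac in both WT libraries, 1520 and 538 bp in Npm1c, 281 and 221 bp in Flt3-ITD, 6 and 0 bp in DM and 0 in both neutrophil libraries. The difference from WT was 1.53 (SE 0.27, limma adjusted p = 0.0226) and was lost without either WT library (adjusted p 0.13 and 0.14) and with centring (0.125). In the first Npm1c library the signal came from a peak at chr13:23696026-23698257 that ran from inside the H1f6 gene to inside its neighbour H4c3. H4c3 had 964 and 901 bp in WT and 1892 and 1551 bp in Npm1c, values that did not overlap and were not called.

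DM HSPC were also set against each single mutant. Against Npm1c, 2 of 61 members were lower and none higher, against 30.3% of genes called and 27.5% lower. They were H1f6 (-1.53, limma adjusted p = 0.00802) and H1f1, with 2535 and 2332 bp in Npm1c and 1894 and 1482 bp in DM (-0.43, adjusted p = 0.0267). H1f1 lost its call with centring (0.354), and without either Npm1c library or the second DM library (adjusted p 0.0566 to 0.109). Against Flt3-ITD no member was called (1 at an unadjusted p under 0.05, as were 16.0% of genes), against 2.68% of genes. With centring, DM against Npm1c gave 3 members higher and 1 lower, without the share of all genes at hand.

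The DM libraries differed from each other at these genes. The first DM library covered more H3K27ac than the second at 59 of 61 members, as at 81.6% of all genes. H4c6 had 1690 and 517 bp, and H2ac4 2026 and 678 bp. Without the first DM library, more members were lower against WT, Npm1c and Flt3-ITD, and without the second some were higher against WT. Shares of all genes under these refits are not given here, so these changes cannot be told apart from a shift of the whole lists. Erythroid markers summed to 1.44 and 1.05 kb in DM HSPC against 17.2 and 15.2 kb in WT HSPC (7 of 8 tested lower), and 6 monocyte markers to 16.4 and 8.20 kb against 2.52 and 1.67 kb (3 of 6 tested higher). In Npm1c HSPC the 10 HSPC markers summed to 32.3 and 38.8 kb against 10.8 and 11.2 kb in WT (5 of 9 tested higher). The part of these differences in the histone values was not tested.

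H3K4me3 in mutant HSPC differed by whole peaks at a few members. Of 61 tested, 1 was called in Npm1c (1.29% of all genes), 2 in Flt3-ITD (2.49%) and 3 in DM (7.14%), and 1 in DM against Npm1c (7.32%) and 1 in DM against Flt3-ITD (4.94%). H3c2, an H3 gene of the third cluster, had 1000 bp in both WT and both neutrophil libraries and 2000 bp in all 6 mutant libraries (0.74). The second peak ran from inside the gene (chr13:23752345-23752840) past its 3′ end, at chr13:23752548-23753547 in the first Npm1c library. Its H3K27ac did not pass the test in any mutant, at 1736 and 1309 bp in WT, 2243 and 2052 bp in Npm1c, 1923 and 1532 bp in Flt3-ITD and 1993 and 1133 bp in DM. H2bc4, an H2B gene, had 1520 and 1488 bp in WT and 2549 and 2551 bp in DM (0.61 against WT and against each single mutant), with an added peak at chr13:23688257-23689256. The other calls were H2bc13 in Flt3-ITD (-0.03) and H2ac13 in DM (0.02), both small shifts of peaks whose direction reversed in the gene span alone; that of H2bc13 also reversed with 5 kb on each side.

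At H2ac7 of the third cluster, H3K4me3 and H3K4me1 differed in pattern without a call in any mutant. H2ac7 had no H3K4me3 in WT or Npm1c, 1000 and 0 bp in Flt3-ITD, and 1000 bp in both DM and both neutrophil libraries. H3K4me1 there was 1000 bp in both WT libraries, 0 in all 6 mutant libraries, and 1000 and 0 bp in neutrophils. Its H3K27ac, 1293 and 1177 bp in WT, was 1665 and 1369 bp in Npm1c, 1320 and 1291 bp in Flt3-ITD and 1393 and 1067 bp in DM.

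H3K4me1 in mutant HSPC was called at 1 member in each of the 5 comparisons among HSPC, against 0.912% of genes in Npm1c, 2.51% in Flt3-ITD, 14.9% in DM, 12.8% in DM against Npm1c and 8.1% in DM against Flt3-ITD. In 4 of them the member was H2bu2. It had 1678 and 1650 bp in WT, 872 and 1000 bp in Npm1c (-0.59, limma adjusted p = 0.043), 1000 and 785 bp in Flt3-ITD (-0.64, adjusted p = 0.0152) and 1756 and 1773 bp in DM, which was higher than Npm1c (0.66, adjusted p = 0.00473) and Flt3-ITD (0.71, adjusted p = 0.00521). DM thus lay with WT at this gene, and each single mutant lay with the neutrophils. Both WT comparisons were lost without either WT library (adjusted p 0.129 and 0.13 in Npm1c, 0.0674 and 0.0699 in Flt3-ITD), that of Npm1c also without its first library (0.115), and both with centring (0.762 and 0.233). Counting only the gene span turned the H2bu2 differences from WT to 0.08 in Npm1c, 0.17 in Flt3-ITD and 0.19 in neutrophils. The remaining call was H2bc11, an H2B gene of the second cluster, with 1170 and 1148 bp in WT and 633 and 578 bp in DM (-0.59, adjusted p = 0.0304), lost without any 1 of the 4 libraries (adjusted p 0.0995 to 0.126) and with centring (0.484). Its values in Npm1c, 615 and 544 bp, were as low as in DM and did not pass.

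In all, 8 members had no peak of any mark in any of the 30 libraries. The testis genes H2bc1 and H2ac1, which encode the germ-line histones TH2B and TH2A, were 2 of them. The other 6 (H2bc23, H2ac23, H4c17, H4c18, H2ac24 and H4bc24) are neighbours at the end of the first chromosome 13 cluster. Their promoters recur in the table: the 300 bases of H2bc23 and H4bc24 (chr13:21833493-21833792) are identical, and of the 251 stretches of 50 bases in each window, 94.0% occurred elsewhere for H4c17 and H4c18, 86.9% for H2ac23 and 73.3% for H2ac24. Reads from such copies cannot be placed in 1 copy only, and how such reads were treated is not stated in the sources at hand; the part of this in the missing peaks was not tested. On chromosome 3, H3c14 and H3c15 had 74.1% of stretches repeated, and H2ac18 and H2ac19 had 67.7%. All of these had H3K27ac and H3K4me3 in all 10 libraries of each mark. Repeats were counted among RefSeq promoter windows only, not in the 1 kb flanks where peaks also count.

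Among the 4 members that are not replication-dependent, marks ranged from H3K4me1 alone to all 3 marks. H1f8, the oocyte linker histone gene, had H3K4me1 only, from 1000 to 2695 bp over the 10 libraries. H1f7, a testis gene, had 1000 bp of H3K4me1 in the first Flt3-ITD and the first DM library and no other peak. H1f10, which encodes H1x, had 1000 bp of H3K4me3 in all 10 libraries and H3K27ac only in the second Npm1c (753 bp) and second Flt3-ITD library (367 bp). H1f0, which encodes H1.0, a linker histone of resting and differentiated cells, had 2000 bp of H3K4me3 in every library. Its H3K27ac was 486 and 645 bp in WT, 1159 and 1207 bp in Npm1c, 636 and 1305 bp in Flt3-ITD, 1305 and 1317 bp in DM, and 449 and 0 bp in neutrophils, and it was not called.

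Other genes of the histone pathway are given beside these for H3K27ac in neutrophils against WT HSPC, where 23% of all genes were called lower and 11.6% higher. Of 11 variant histone genes, which include H1f0 and H1f10, 3 were lower: H2az1 (-0.38), H2az2 (-0.61) and H2ax (-0.66). Of 20 genes of the histone locus body and histone mRNA processing, 6 were lower and 2 higher, with a median of -0.23. Npat, the organiser of the histone locus body, fell by 0.47 on the log2 scale, and the cyclin E gene Ccne2 by 1.43. Cpsf2, a cleavage factor subunit, fell by 0.89, whereas the nuclease gene Cpsf3 rose by 0.62. Of 13 histone chaperone genes 5 were lower, among them Asf1a (-0.61) and Nasp (-0.54), with a median of -0.35. Of 20 S phase genes 9 were lower, among them the helicase subunit gene Mcm6 (-1.71) and the ribonucleotide reductase genes Rrm2 (-1.13) and Rrm1 (-0.87), with a median of -0.40.

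Against WT HSPC, Npm1c HSPC had higher H3K27ac at 0 of 11 variant histone genes, 5 of 20 histone locus body and processing genes, 3 of 13 chaperones and 2 of 20 S phase genes, where 15.2% of all genes were called. In DM against Npm1c, where 27.5% of all genes were lower, 10 of 20 S phase genes, 8 of 20 histone locus body and processing genes and 3 of 13 chaperones were lower, and 1 of 11 variant histone genes was higher.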

How the data were processed

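The deposited files hold peak coordinates in 3 columns (chromosome, start, end), a unit classed as other, for 30 of 35 samples, without the 5 input samples. The authors, per the submitters' processing notes, used mm10, Bowtie2 2.1.0, Picard, HOMER and MACS2; from the labels of the lists, HOMER made those of H3K4me1 and H3K4me3 and MACS2 those of H3K27ac. No threshold or depth is stated in the sources at hand. Peaks were listed per library.

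Covered bp per gene (RefSeq spans of GRCm38.p6 with 1 kb on each side) were summed with NumPy 2.4.6 and pandas 2.3.3 (Python 3.11.15), and plots drawn with matplotlib 3.10.9. The 5 groups were fitted jointly on log2(bp + 500) with limma 3.58.1 (R 4.3.3; trended eBayes), keeping genes with a peak in 2 or more of a mark's 10 libraries. For each of 6 comparisons and 3 marks, p-values were adjusted over all genes kept (Benjamini-Hochberg, 0.05). Peaks count as present from 1 bp of overlap. The fit was tested on simulated data.

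Named members were those called (the 10 largest where over 10 were), the member with most H3K27ac per cluster and class, testis and unmarked members and those not replication-dependent; others are said to be chosen after their values were seen, or are shown because they are partners, neighbours or H1 genes of these. Of other lists, up to 4 called genes were named. The members and lists were chosen with earlier results of these data known. Alternatives were another pseudocount (2000 bp), no filter, other windows, centring, robust eBayes, the replicate number as a block, the widest peaks in lists of equal length (21704 for H3K27ac), an overlap of 200 bp and leaving out each library.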

Additional observations from a re-analysis of the deposited data

How the results depend on the processing

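No read depth is known for any list and 2 libraries a group leave little to estimate spread from, so a member that did not pass the test may still differ. Counts of calls under the settings and refits below are given without the share of all genes called there. They describe the members only and cannot be told apart from a shift of the whole lists. Counting only gene spans, H3K27ac in neutrophils gave 10 lower members instead of 35 and presence in both libraries at 28 (54 in WT), H3K4me1 presence was 16 in WT, 15 in Npm1c, 10 in Flt3-ITD, 9 in DM and 16 in neutrophils, and cluster sums of H3K27ac in WT and neutrophils were 3.08 and 1.55 kb (chromosome 3), 2.52 and 0.694 kb (first on chromosome 13), 0.651 and 0.242 kb (second) and 11.2 and 7.21 kb (the third); the windows are shorter by construction. With 5 kb on each side these sums were 11.6 and 7.96 kb on chromosome 3, 16.1 kb (WT, first), 4.82 kb (WT, second) and 41.4 and 18.8 kb (the third), and with the widest peaks 17.4 kb (neutrophils, the third). The direction from WT to neutrophils was kept in every cluster under these windows.

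The 35 lower members of the neutrophil comparison were called again as 35 with the other pseudocount, the replicate block, robust eBayes, centring and the widest peaks, 33 with 5 kb on each side, 31 without the filter and 10 in the span only. Leaving out 1 library gave 23 to 29 calls (main count 35), the lone sample being assumed to vary like the other groups.

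Calls in the other comparisons were few and moved with the setting, and the cause was not tested. For H3K4me1, Npm1c gave 0 members without the filter, in the span only, with 5 kb, with centring, with robust eBayes and with the replicate block. Flt3-ITD gave 0 in the span only, with 5 kb and with centring. DM gave 3 with 5 kb and 0 with centring, and neutrophils gave 1 without the filter, 0 in the span only and 1 with 5 kb. DM against Npm1c gave 2, and DM against Flt3-ITD 0, in the span only. For H3K4me3, the span only and 5 kb gave 3 and 2 in Npm1c, 5 and 8 in DM and 2 and 3 in DM against Flt3-ITD. In Flt3-ITD, 5 kb gave 5 and no filter, the replicate block and robust eBayes 1 each, and in DM against Npm1c 5 kb gave 3. For H3K27ac, Npm1c gave 0 without the filter, in the span only, with centring and with the widest peaks, and 3 with 5 kb. DM against Npm1c gave 1 without the filter, 0 in the span only, 8 with 5 kb and 4 with centring.

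Leaving out each library in turn gave, for H3K4me1, 0 to 3 calls in Npm1c, 0 to 3 in Flt3-ITD, 0 to 2 in DM, 1 to 5 in neutrophils, 1 to 5 in DM against Npm1c and 1 to 2 in DM against Flt3-ITD. For H3K4me3 it gave 2 to 5 in Npm1c, 2 to 7 in Flt3-ITD, 2 to 8 in DM, 1 to 3 in DM against Npm1c and 1 to 4 in DM against Flt3-ITD. For H3K27ac it gave 0 to 2 in Npm1c, 0 to 6 in DM, 1 to 33 in DM against Npm1c and 0 to 10 in DM against Flt3-ITD. Of the gene calls named or counted above, no direction reversed, 179 of these refits kept the call and 69 lost it.

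Single-gene directions reversed only with the window. In the span only, H2bu2 H3K4me1 was 0.0779, 0.17 and 0.19 (Npm1c, Flt3-ITD, neutrophils). For H3K4me3, H2bc13 was 0.015 and 0.0489 (Flt3-ITD, neutrophils), H2ac13 -0.0666 and -0.0612 (DM, neutrophils), H2ac20 0.22 and H2ac12 0.53 in neutrophils. H4f16 H3K27ac in neutrophils was 0.0015. With 5 kb, H4f16 H3K4me1 was -0.42, H2bc13 0.0788 in Flt3-ITD, and H2ac13 -0.0495 and H3c1 -0.0012 in neutrophils. Same-numbered libraries did not deviate together (correlations -0.23 to 0.269 over group pairs and marks), so replicate numbers were not taken as a pairing; the replicate block lost 5 of 62 gene calls, those of H2bu2 (H3K4me1, Npm1c) and of H2bc13 and H2ac13 (H3K4me3). Centring shifted the H3K4me1 comparisons of all genes with WT by -0.20 in Npm1c, -0.33 in DM and -0.23 in neutrophils.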
